A study of Mus musculus with 2 samples.

Results

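The miR-181 family of mouse comprises 6 hairpin genes in 3 paired loci, Mir181a-1 with Mir181b-1, Mir181a-2 with Mir181b-2, and Mir181c with Mir181d. They were taken by name from the GENCODE M21 annotation, and all 6 were found among the 2202 miRNA genes of the count tables. The data are microRNA-seq of hearts of male 5xFAD/CAST mice, adults of 8 to 10 months, in 2 libraries labelled biological replicates 2 and 1. 5xFAD mice are a transgenic model of brain amyloid deposition, with transgenes driven by the neuronal Thy1 promoter, and CAST is a wild-derived inbred strain. Both libraries share this genotype, sex, age and tissue, so no condition was compared and no control strain enters. The labels give the replicates the same donor entry and different biosample entries, and do not say whether they are separate animals. All differences below therefore compare these libraries and may be technical.

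A miRNA gene is transcribed as a hairpin from which a 5p and a 3p arm can be cut, and the mature arm guides silencing of mRNAs that match its seed, the bases 2 to 8. The miR-181 family is best known in lymphocytes, where in mice miR-181a tunes the sensitivity of the T cell receptor. In mice miR-181b dampens NF-κB signalling in vascular endothelium, and in rat heart muscle cells miR-181c has been found in mitochondria, where it acts on a mitochondrially encoded subunit of cytochrome c oxidase.

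The mature sequences are shown because they decide which hairpins the counts can tell apart. RefSeq (GRCm38.p6) lists 12 mature entries for the 6 genes, which hold 10 different sequences. Variants of the CAST strain in these sequences and hairpins were not looked at. The 5p arms are given first, 5′ to 3′, with the seed in capitals.
miR-181a-5p: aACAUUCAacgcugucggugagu
miR-181b-5p: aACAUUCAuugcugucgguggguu
miR-181c-5p: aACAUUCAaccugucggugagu
miR-181d-5p: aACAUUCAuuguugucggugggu
All 6 hairpins carry the seed ACAUUCA on the 5p arm, and these 6 were the only entries with it among 1738 mature entries of the table. Counted from the 5′ end, miR-181b-5p differs from miR-181a-5p by A9U, C10U and A21G and has 1 base more. miR-181d-5p differs from miR-181b-5p by C12U and is 1 base shorter. Removing base 11 of miR-181a-5p gives miR-181c-5p.

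The 3p arms differ in every hairpin and are given in the same way.
miR-181a-1-3p: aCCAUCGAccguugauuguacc
miR-181a-2-3p: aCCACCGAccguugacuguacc
miR-181c-3p: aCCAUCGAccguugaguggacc
miR-181b-1-3p: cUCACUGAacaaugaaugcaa
miR-181b-2-3p: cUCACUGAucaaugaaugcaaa
miR-181d-3p: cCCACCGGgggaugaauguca
By seed they fall into 4 groups. The arms of Mir181a-1 and Mir181c share CCAUCGA, those of Mir181b-1 and Mir181b-2 share UCACUGA, and those of Mir181a-2 and Mir181d each have a seed of their own. miR-181a-2-3p differs from miR-181a-1-3p by U5C and U16C, the first of which lies in the seed.

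The 5p arm is exactly the same in Mir181a-1 and Mir181a-2, and again in Mir181b-1 and Mir181b-2. Searched in all 2202 counted hairpins, miR-181a-5p and miR-181b-5p each matched 2 hairpins, while the 5p arms of Mir181c and Mir181d and all 6 of the 3p arms matched 1 hairpin each. The identity runs past the arm, as the aligned stretches show, in which capitals mark the bases that both hairpins of a pair share without a break.
Mir181a-1: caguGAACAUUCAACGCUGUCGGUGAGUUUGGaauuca
Mir181a-2: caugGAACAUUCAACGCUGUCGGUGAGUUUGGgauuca
Mir181b-1: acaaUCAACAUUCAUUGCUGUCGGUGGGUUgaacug
Mir181b-2: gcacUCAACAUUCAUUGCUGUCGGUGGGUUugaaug
The shared stretch is 28 nt in the a pair, with 4 shared bases after the arm, and 26 nt in the b pair, with 0 shared bases after the arm. A read that lies within such a stretch aligns to both hairpins. The tables put reads aligned to several places into a summary line and give them to no gene. That line held 46.8% of all reads in replicate 2 and 42.3% in replicate 1. The levels of the a and b hairpins given here are thus not the levels of mature miR-181a and miR-181b. How many miR-181 reads the summary line holds, and which arm the counted reads came from, was not measured.

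On mm10, Mir181a-1 (ENSMUSG00000065565.1, chromosome 1, 137966455 to 137966541) and Mir181b-1 (ENSMUSG00000065458.1, 137966639 to 137966718) lie on the plus strand with 97 nt between them. Both sit in an intron of the processed transcript Gm4258. Mir181b-1 and the last 11 nt of Mir181a-1 also lie in an exon of the lincRNA A430106G13Rik on the same strand, and the lincRNA Gm26936 spans the pair on the opposite strand. Mir181a-2 (ENSMUSG00000065423.1, chromosome 2, 38852735 to 38852810) and Mir181b-2 (ENSMUSG00000065578.1, 38853830 to 38853918) are 1019 nt apart on the plus strand. They lie in an intron of Nr6a1, an orphan nuclear receptor gene, which runs on the opposite strand, where the transcript Gm44144 also covers Mir181b-2. Mir181c (ENSMUSG00000065483.2, chromosome 8, 84178873 to 84178961) and Mir181d (ENSMUSG00000076338.1, 84178716 to 84178787) are 85 nt apart on the minus strand, in an intron of the germ cell gene Nanos3 on the same strand. At each locus the a or c hairpin is upstream and the b or d hairpin downstream.

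**Figure D1:**
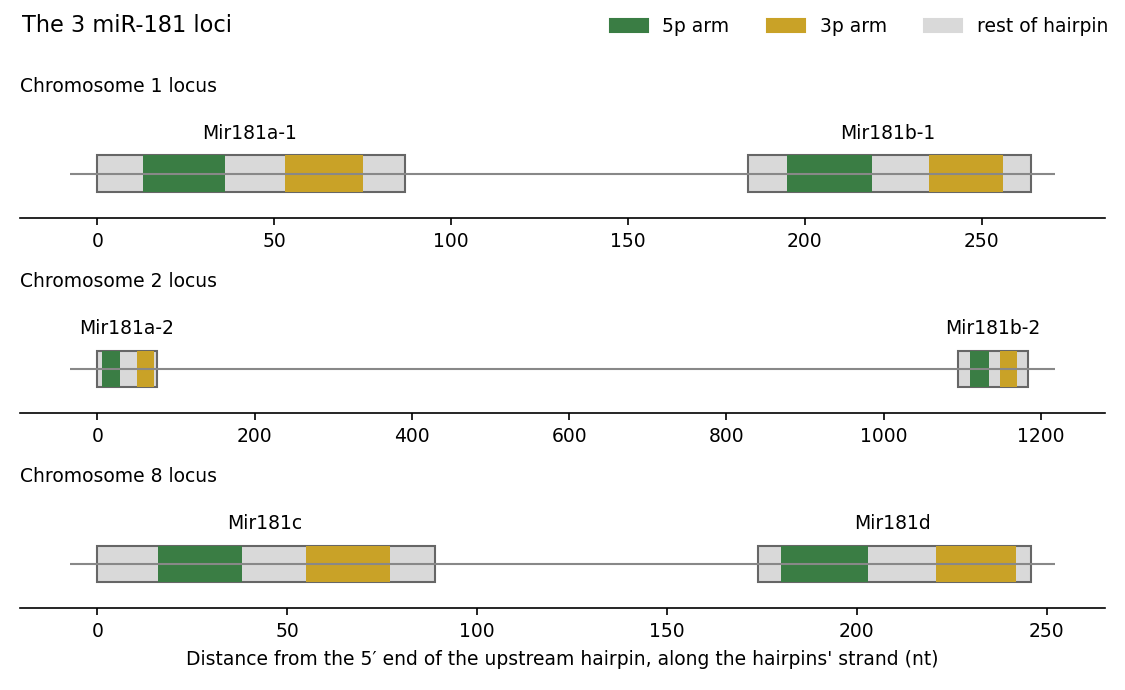
Maps of the 3 loci, with distance in nt from the 5′ end of the upstream hairpin on the x axis (each panel has its own scale), hairpins as boxes, 5p arms in green and 3p arms in yellow. The hairpins are 97, 1019 and 85 nt apart on chromosomes 1, 2 and 8.

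All 6 hairpins were detected, meaning at least 10 sense counts in both libraries, and none had a count on the opposite strand. Together they held 7009 of 5058613 sense counts in replicate 2 and 8968 of 3889280 in replicate 1. This is 0.139% (95% Clopper-Pearson interval 0.135 to 0.142) and 0.231% (0.226 to 0.235), or 1846 ± 651 CPM (SD, n = 2). CPM, counts per 1000000, is the sense count scaled to the sense total of its library. Intervals cover the counting error of reads only, not differences between libraries. They are too narrow where reads are PCR copies, since such reads are not independent molecules.

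The most abundant hairpin by mean was Mir181b-2, at 383 CPM in replicate 2, against 988 CPM in replicate 1 (685 ± 428, SD, n = 2). Mir181d, the second, had 460 CPM in replicate 2, against 713 CPM in replicate 1 (586 ± 179). Mir181c, the hairpin of the miRNA described in rat heart mitochondria, had 384 CPM in replicate 2, against 392 CPM in replicate 1 (388 ± 6.12). These 3 stood at percentiles 77.8, 76.6 and 73.8 among the 325 miRNA genes detected in both libraries.

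Mir181a-1 had 105 CPM in replicate 2, against 106 CPM in replicate 1 (106 ± 1.04, SD, n = 2). Mir181a-2 had 51.2 CPM in replicate 2, against 92.6 CPM in replicate 1 (71.9 ± 29.2). Mir181b-1 was far below the rest, with 16 and 54 counts in replicates 2 and 1, or 3.16 CPM (interval 1.81 to 5.14) and 13.9 CPM (10.4 to 18.1). They stood at percentiles 59.7, 54.5 and 22.8.

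In the order by mean CPM per hairpin, Mir181b-2 and Mir181d overlapped, with Mir181b-2 the higher in replicate 1 alone. For the other neighbours in this order the ranges of the 2 libraries did not overlap, and 2 libraries against 2 are too few for an exact test to pass 0.05. In replicate 2 alone the order began with Mir181d, Mir181c and Mir181b-2. Per 100 nt of hairpin, Mir181d came first at 814 ± 248 CPM and Mir181b-2 second at 770 ± 481 CPM (SD, n = 2), and the other ranks were the same. Mir181c had 436 ± 6.88, Mir181a-1 122 ± 1.20, Mir181a-2 94.6 ± 38.5 and Mir181b-1 10.7 ± 9.48 CPM per 100 nt.

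**Figure D2:**
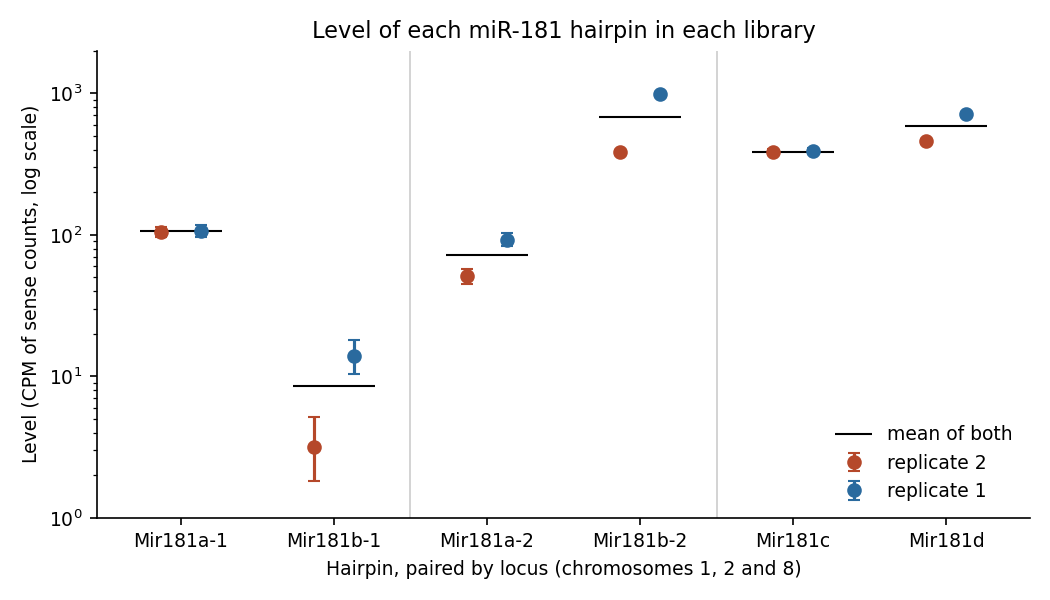
Level of each hairpin in CPM of sense counts (log axis) in replicate 2 and replicate 1, with 95% Clopper-Pearson intervals and the mean of both as a line, paired by locus. Mir181a-1 and Mir181c have near-equal levels in both libraries, and Mir181b-1 lies lowest in both.

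By reads placed at a single hairpin, the loci were unequal in level. The chromosome 8 locus of Mir181c and Mir181d held 4268 counts in replicate 2 and 4298 in replicate 1, or 974 ± 185 CPM (SD, n = 2). The chromosome 2 locus held 2194 and 4202 counts, or 757 ± 457 CPM. The chromosome 1 locus held 547 and 468 counts, or 114 ± 8.63 CPM. The chromosome 1 locus was the lowest in both libraries. The chromosome 8 locus exceeded the chromosome 2 locus in replicate 2, while in replicate 1 the intervals of their shares of the family overlapped. The hairpins of the chromosome 8 locus are those with a 5p arm of their own, and the other 4 hairpins together had 871 ± 466 CPM. Reads within the stretches that those 4 hairpins share in pairs entered no gene. Their loci and the chromosome 8 locus were thus not counted alike.

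By reads placed at a single hairpin, the balance of the partners ran in opposite directions at the loci. Reads within the stretches shared between chromosomes 1 and 2 are left out. These stretches run 4 bases past the arm in the a pair and 0 in the b pair, so a and b partners were not counted alike. On chromosome 1 the upstream Mir181a-1 exceeded Mir181b-1 33.2-fold in replicate 2 (95% interval 20.2 to 58.5) and 7.67-fold in replicate 1 (5.76 to 10.4). On chromosome 2 the downstream Mir181b-2 exceeded Mir181a-2 7.47-fold in replicate 2 (6.56 to 8.54) and 10.7-fold in replicate 1 (9.58 to 11.9). On chromosome 8 the partners were closest, with Mir181d 1.20-fold above Mir181c in replicate 2 (1.13 to 1.27) and 1.82-fold in replicate 1 (1.71 to 1.93).

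The paralogs with the same 5p arm were also compared by level, without a test. Mir181b-2 stood above Mir181b-1 in both libraries, with 1935 against 16 counts in replicate 2 and 3842 against 54 in replicate 1. Mir181a-2 stood below Mir181a-1 in both, with 259 against 531 counts in replicate 2 and 360 against 414 in replicate 1. In replicate 1 their counting intervals overlapped, at 83.2 to 103 CPM for Mir181a-2 and 96.4 to 117 CPM for Mir181a-1. Per 100 nt of hairpin both had 122 CPM in replicate 1. These differences concern only the reads that could be placed at a single hairpin.

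The make-up of the family differed between the libraries, whatever the scaling, since ratios within a library need none. It covers only the reads placed at a single hairpin. Mir181b-2 held 27.6% of the family's counts in replicate 2 and 42.8% in replicate 1, while Mir181c held 27.7% and 17.0%. Mir181d held 33.2% in replicate 2 and 30.9% in replicate 1. By locus, chromosome 8 held 60.9% in replicate 2 (95% interval 59.7 to 62.0) and 47.9% in replicate 1 (46.9 to 49.0). Chromosome 2 held 31.3% (30.2 to 32.4) and 46.9% (45.8 to 47.9), and chromosome 1 held 7.80% (7.19 to 8.46) and 5.22% (4.77 to 5.70).

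Of 6 comparisons by two-sided Fisher's exact test, adjusted over the 6, all passed 0.05. The odds of a count from the chromosome 2 locus rather than the rest were lower in replicate 2, with an odds ratio of 0.517 (adjusted p = 2.60e-88). Those of the chromosome 8 locus and the chromosome 1 locus were higher, at 1.69 (adjusted p = 1.45e-59) and 1.54 (adjusted p = 6.61e-11). The loci divide a single total, so a smaller share of chromosome 2 raises that of the rest, and these tests are not independent. In CPM neither locus was higher in replicate 2. Chromosome 8 had 844 CPM in replicate 2, against 1105 CPM in replicate 1, and chromosome 1 had 108 and 120 CPM. At every locus the downstream hairpin took a smaller part of the pair in replicate 2. The odds ratio was 0.231 for Mir181b-1 against Mir181a-1 (adjusted p = 8.80e-08), 0.700 for Mir181b-2 against Mir181a-2 (4.07e-05) and 0.660 for Mir181d against Mir181c (1.02e-20). These exact tests cover counting error only.

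**Figure D3:**
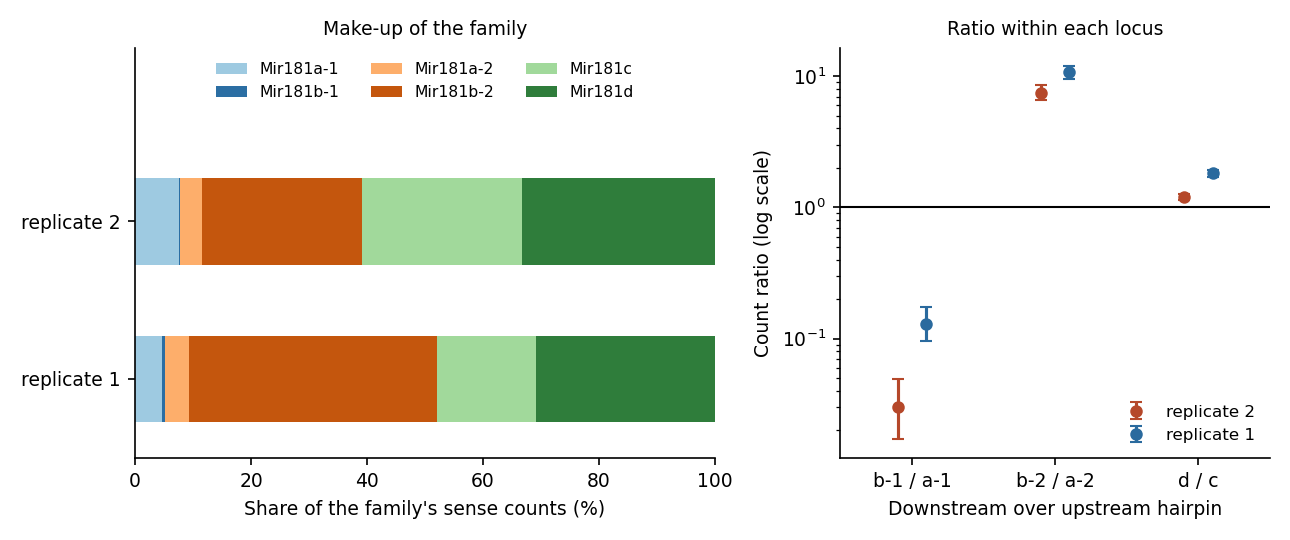
Left, share of the family's sense counts in percent held by each hairpin, with replicate 2 above replicate 1. Right, count ratio of the downstream over the upstream hairpin (log axis) with 95% intervals, where Mir181b-1 over Mir181a-1 lies below 1 and the other pairs lie above 1 in both libraries.

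All 3 hairpins of the b and d kind were lower in replicate 2, and so was Mir181a-2, while Mir181a-1 and Mir181c did not pass the test. After TMM scaling, Mir181b-1 was 3.33-fold lower in replicate 2, at a log2 ratio of -1.74 (exact interval without the added CPM -2.92 to -1.19; adjusted p = 3.48e-07). Mir181b-2 was 2.37-fold lower, at -1.25 (-1.33 to -1.17; adjusted p = 1.40e-224). Mir181d was 1.42-fold lower, at -0.51 (-0.59 to -0.43; adjusted p = 1.24e-35). All 3 adjusted p-values are from the two-sided exact binomial test over all tested genes.

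Of the a and c hairpins, Mir181a-2 was 1.65-fold lower in replicate 2, at a log2 ratio of -0.72 (-0.97 to -0.50; adjusted p = 1.40e-09, exact binomial test). Mir181a-1 stood at 0.10 (-0.09 to 0.29; adjusted p = 0.423) and Mir181c at 0.09 (-0.01 to 0.19; adjusted p = 0.136), and neither passed. With total-count scaling the ratios of Mir181a-1 and Mir181c were -0.02 and -0.03. Summed, the b and d hairpins had 846 CPM in replicate 2, against 1714 CPM in replicate 1, and the a and c hairpins 540 and 591 CPM.

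Thus 4 of the 6 hairpins differed, all lower in replicate 2. Among all 412 tested genes 45.4% differed, with 22.8% lower and 22.6% higher in replicate 2. The median log2 ratio was -0.62 over the 6 hairpins and -0.01 over all tested genes. Among the 186 other genes whose summed counts lay in the hairpins' range of 70 to 5777, 97 differed, or 52.2%, 52 higher and 45 lower in replicate 2. A difference of at least 2-fold was met by Mir181b-1 and Mir181b-2, against 11.9% of tested genes in either direction and 4.37% lower in replicate 2.

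**Figure D4:**
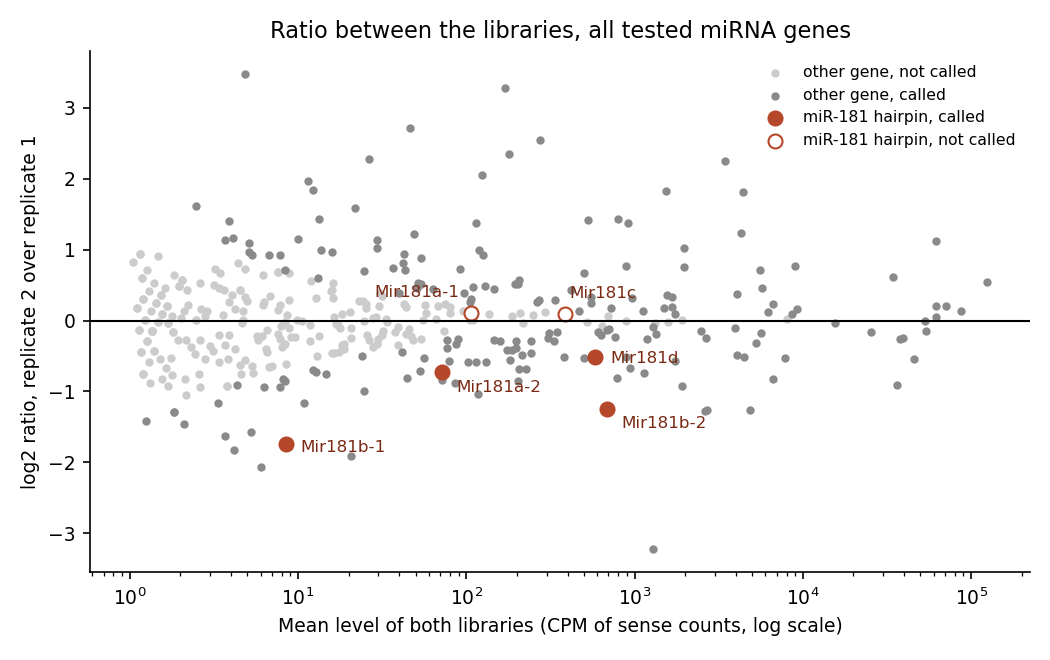
Log2 ratio of replicate 2 over replicate 1 against the mean level in CPM (log axis) for the 412 tested miRNA genes, with the miR-181 hairpins in red, filled where past the exact binomial test. The 4 filled points lie below 0, and Mir181a-1 and Mir181c lie at 0.10 and 0.09.

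Markers of the heart were present, and those of heart muscle, endothelium, smooth muscle and red cells also passed the test between the libraries, in differing directions. Mir208a and Mir208b, from introns of the cardiac myosin genes, were 2.40-fold and 1.85-fold lower in replicate 2, with 1485 against 3885 CPM and 56.5 against 115 CPM in replicates 2 and 1. Mir499, from an intron of another myosin gene, was 2.34-fold higher, so the 3 heart muscle markers together had 7430 CPM in replicate 2, against 6731 CPM in replicate 1. The endothelial marker Mir126a had 87787 and 87115 CPM, and the smooth muscle markers Mir143 and Mir145a together 41747 and 30137 CPM. After TMM scaling these were higher in replicate 2, Mir126a 1.10-fold, Mir143 1.53-fold and Mir145a 1.13-fold. The 3 leukocyte markers Mir142, Mir150 and Mir223 had 1789 CPM in replicate 2, against 1957 CPM in replicate 1, and 0 of 3 passed the test, against 45.4% of all tested genes. With total-count scaling Mir150 passed it, lower in replicate 2 at a log2 ratio of -0.15. Of the red cell markers, Mir451a was 1.60-fold lower in replicate 2, with 165 against 288 CPM, and Mir144 was 1.75-fold higher, with 52.4 against 32.1 CPM. Of the 7 neuronal markers, Mir137 alone was detected, and the list summed to 18.2 and 13.9 CPM in replicates 2 and 1. The Mir124a genes and Mir9-2 had 0 counts. For reads placed at a single gene this allows up to 0.593 CPM in replicate 2 and 0.771 in replicate 1. Reads aligned to several places were given to no gene, so these values do not bound a mature miRNA cut from several genes. The part of these cell types in the miR-181 levels was not tested, and in bulk tissue fewer cells of a type and less RNA per cell cannot be told apart.

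The other miRNA genes linked to the settings of miR-181 moved in both directions. In the list of miRNAs described as acting on muscle or heart mitochondria, 6 of 8 were detected, 5 of 7 tested were higher in replicate 2 and 1 was lower, with a median log2 ratio of 0.47, against 22.6% higher, 22.8% lower and a median of -0.01 over all tested genes. The lower one was Mir484, at 543 CPM in replicate 2, against 1037 CPM in replicate 1 (1.75-fold lower). The higher ones were Mir378a, 1.46-fold, Mir140, 3.52-fold, Mir499, 2.34-fold, Mir210, 1.39-fold, and Mir1a-2, 1.31-fold. Mir378a and Mir140 were the most abundant of the list by counted reads. Reads aligned to several places entered no gene, so folds and ranks in this and the other lists cover only reads placed at a single gene. Mir1a-2 lost its call with total counts. Mir181c, the family's own miRNA of that setting, did not pass the test.

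In the vascular inflammation list, 7 of 7 were detected, 4 were higher and 2 lower in replicate 2, with a median log2 ratio of 0.13, beside the same 22.6% and 22.8% over all tested genes. Mir126a and Mir155 were the most abundant. Mir126a was higher 1.10-fold, Mir10a 1.28-fold, Mir146 1.26-fold and Mir31 2.70-fold. Mir155 was lower 1.40-fold and Mir92-1 1.67-fold, both in replicate 2. In the column that ignores strand Mir126a stood at a log2 ratio of -0.39 and lost its call. Its sense counts passed the test at a smaller ratio, so that column held too few of its counts to give a direction. In the lymphocyte and blood cell list, 6 of 6 were detected, and Mir146 was higher and Mir155 lower by the folds just given. These 2 were also its most abundant members, and the median log2 ratio of the list was 0.03.

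The genes nearest to each hairpin were found by the distance in log2(CPM + 1) over the 2 libraries, which reads only 2 values per gene. Mir181a-1 lay nearest to Mir542, at a distance of 0.0619, and then to Mir1843b at 0.107. Mir181a-2 lay nearest to Mir92-2 at 0.0887 and Mir154 at 0.234. Mir181c lay nearest to Mir335 at 0.281 and Mir532 at 0.295, and Mir181d to Mir467d at 0.271 and Mir425 at 0.285. Mir181b-2 had no gene as near, with Mir484 at 0.510 and its own family member Mir181d at 0.540. Mir181b-1, the lowest of the family, lay nearest to Mir103-2 at 0.573 and Mir106a at 0.641.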

How the data were processed

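Small RNA of heart tissue was sequenced in 2 libraries of a single group. The authors deposited raw read counts per annotated miRNA gene, with strand ignored, on the sense strand and on the opposite strand. Per the file headers the build is mm10 and the annotation GENCODE M21, to which all 2202 gene IDs matched. For the aligner and its settings, the sources used here name none. The 4 summary lines that name no gene held 64.4% of reads in replicate 2 and 64.1% in replicate 1, and stayed out of totals and tests.

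Levels are CPM, the deposited sense counts over the sense total of the library (5058613 in replicate 2 and 3889280 in replicate 1). Genes with a sum of at least 10 counts were compared by an exact binomial test, two-sided, with the expected share set by TMM effective library sizes (edgeR 4.0.16, scipy 1.17.1), Benjamini-Hochberg adjusted over all tested genes at 0.05. With 1 library on each side, the quasi-likelihood test of edgeR could not be run. Log2 ratios put replicate 2 over replicate 1 on TMM-scaled levels plus 1 CPM, so ratios of low genes are understated. Ratio intervals are exact, from the counts, without the added CPM. Make-up within the family was compared by Fisher's exact test. Intervals are 95% Clopper-Pearson. Alternatives were total counts, DESeq2 1.42.0 size factors, other filters, another pseudocount, the column that ignores strand, hairpin length and single libraries. The test was checked on simulated counts with total library sizes. These counts held counting error and set changes only, so the check does not cover other differences between libraries.

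The members and lists were chosen with earlier results of these data known. Named genes are the 6 members, the 2 genes nearest to each in log2(CPM + 1) over the libraries, and from each of the mitochondria, vascular inflammation, and lymphocyte and blood cell lists the called members and the 2 most abundant.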

Additional observations from a re-analysis of the deposited data

How the results depend on the processing

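Of the 36 alternative log2 ratios of single hairpins, 33 kept their direction and their side of the threshold. With total sense counts, which moved the median log2 ratio of detected genes by -0.12, Mir181a-1 stood at -0.02 and Mir181c at -0.03, neither past the test. In the column that ignores strand Mir181c passed it, at a log2 ratio of 0.14 (adjusted p = 0.0142, exact binomial test, and up to 0.645 across the alternatives), for 5 hairpins called. The counts of Mir181c in that column, 1941 in replicate 2 and 1526 in replicate 1, were those of the sense column, so its ratio moved through the scaling alone. The other scalings and filters called 4, and asking also for 2-fold, added after seeing the data, left 2. The share of calls higher in replicate 2 was 39.7% with total counts, against 49.7% with TMM.

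Of 139 alternatives for the list genes, added after seeing the data, 131 kept the direction and the side of the threshold. With total counts Mir150 and Mir17 gained a call, at log2 ratios of -0.15 and -0.13, and Mir1a-2 lost its own. Log2 ratios changed sign for Mir223 (-0.05) with total counts and for Mir17 (0.00) with DESeq2 size factors. In the column that ignores strand they did so for Mir17 (0.04), Mir150 (0.02) and Mir126a (-0.39). That column held too few counts of Mir126a to give its direction. It gave no tested ratio for Mir142, Mir378a, Mir451a and Mir1a-2, and the stricter filter gave none for Mir1a-1. These are not among the 139 alternatives.

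Asking also for 2-fold cut the called genes to 49, by construction. Per 1000000 reads of the deposited tables the family stood at 661, since that divisor holds the reads given to no gene. In the column that ignores strand it stood at 2405 CPM, against 1846 CPM, from the same hairpin counts and within the SD of 651 CPM. Of the single hairpins, Mir181a-1 and Mir181c alone moved there by more than their SD, from 106 to 138 CPM and from 388 to 508 CPM. In the order by level, 4 hairpins kept their rank per 100 nt of hairpin, and 3 to 6 with 1 library left out. Counting error limits Mir181b-1 most. No paired analysis was possible because both libraries belong to 1 group.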
